A study of Mus musculus with 12 samples.

Results

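*Pik3cb*, *Pik3r1* and *Sos1* are 3 genes of phosphoinositide 3-kinase (PI3K) and Ras signaling, and they are followed here over all 12 arrays of left ventricular (LV) RNA in the series. They are 3 of the 863 gene symbols that could be given to a probe. The members were chosen by measured values: each had passed the study's limits for fold and p in at least 1 comparison of these arrays. *Pik3cb* was selected on its level in MI miR-150 fl/fl, higher there than after the sham operation in the same genotype and higher than in MI miR-150 cKO. *Pik3r1* was selected on a lower level after MI than after sham in the miR-150 fl/fl genotype. *Sos1* was selected on its higher level than in sham miR-150 fl/fl, both in sham miR-150 cKO and in MI miR-150 fl/fl. In those comparisons the values below are a description, with no test.

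All mice were C57BL/6J and carried miR-150 alleles flanked by loxP sites (miR-150 fl/fl). The miR-150 cKO mice (alpha-MHC-Cre;miR-150 fl/fl) also carried Cre under the alpha myosin heavy chain promoter, which acts in cardiomyocytes (CMs), so other cells of the LV keep miR-150 by design. Mice had a sham operation or myocardial infarction (MI) from a lasting tie on the left anterior descending (LAD) artery, and LVs were taken 4 weeks later. Each of the 4 groups held 3 mice, 1 male and 2 females. They were 13 to 14 weeks old in sham miR-150 fl/fl, 14 in MI miR-150 fl/fl, 14 to 15 in sham miR-150 cKO and 15 in MI miR-150 cKO. The miR-150 fl/fl mice carried no Cre, so an effect of Cre itself and one of miR-150 loss cannot be told apart. The microRNA itself has no named probe and was not analysed here, so the genotype labels were not checked by it. Whole LV was measured, so fewer cells of a type and less RNA per cell cannot be told apart.

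PI3K is a lipid kinase at the cell membrane. It is made of a catalytic and a regulatory subunit, and it turns the lipid PIP2 into PIP3, to which the kinases Pdpk1 and Akt bind. *Pik3cb* encodes the beta catalytic subunit, which takes input from receptor tyrosine kinases and from the beta/gamma subunits of G proteins. *Pik3r1* encodes the alpha regulatory subunit and its shorter forms, which hold the catalytic subunit stable and inhibited until phosphotyrosines on a receptor are bound. *Sos1* encodes a guanine nucleotide exchange factor that is brought to receptors by the adaptor Grb2 and loads Ras with GTP. Active Ras drives the MAP kinase cascade and also binds some, but not all, PI3K catalytic subunits. In the heart, PI3K signaling is known for its part in growth, contractility and survival of CMs, and Ras and MAP kinase signaling for hypertrophic growth.

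The probes are for transcripts NM_029094 (*Pik3cb*), NM_001024955 (*Pik3r1*) and NM_009231 (*Sos1*). In RefSeq's GRCm38.p6 annotation, *Pik3cb* lies at chr9:99038402-99140235, *Pik3r1* at chr13:101680761-101768217 and *Sos1* at chr17:80393752-80480453. All 3 genes are on the minus strand. The deposited files name another build, mm9, and were not used for coordinates. For each start, 226 bases of upstream sequence are shown, because the measured transcripts could begin there. The bases nearest the start were left out, since for *Pik3cb* they lie within the annotated gene. The RefSeq table has 2 starts for *Pik3r1*, an outer one at the end of the gene and an inner one within it, and it does not say which belongs to NM_001024955. Capitals mark the GC box GGGCGG and the CCAAT box CCAAT, each on either strand, and no 2 marked motifs overlap.
Pik3cb (chr9:99140236-99140461, minus strand): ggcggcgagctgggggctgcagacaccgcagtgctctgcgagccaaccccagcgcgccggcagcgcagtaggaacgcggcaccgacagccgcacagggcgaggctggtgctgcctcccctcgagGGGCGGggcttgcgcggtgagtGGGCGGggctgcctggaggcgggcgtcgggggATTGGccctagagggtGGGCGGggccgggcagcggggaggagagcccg
Pik3r1, outer start (chr13:101768242-101768467, minus strand): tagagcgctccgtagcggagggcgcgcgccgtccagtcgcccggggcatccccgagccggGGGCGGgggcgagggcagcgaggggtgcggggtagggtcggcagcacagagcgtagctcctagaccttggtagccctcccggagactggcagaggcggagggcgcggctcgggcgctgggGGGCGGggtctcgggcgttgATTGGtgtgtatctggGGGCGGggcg
Pik3r1, inner start (chr13:101692655-101692880, minus strand): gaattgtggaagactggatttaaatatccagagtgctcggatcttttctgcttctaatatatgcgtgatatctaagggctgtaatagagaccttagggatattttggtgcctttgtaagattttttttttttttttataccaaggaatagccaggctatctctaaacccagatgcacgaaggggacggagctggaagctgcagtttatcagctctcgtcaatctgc
Sos1 (chr17:80480478-80480703, minus strand): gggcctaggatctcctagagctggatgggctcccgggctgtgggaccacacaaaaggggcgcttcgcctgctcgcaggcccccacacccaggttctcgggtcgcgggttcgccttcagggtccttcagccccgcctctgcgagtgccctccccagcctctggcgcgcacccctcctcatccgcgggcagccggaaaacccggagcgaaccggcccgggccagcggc

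The start of *Pik3cb* and the outer start of *Pik3r1* are alike in their letters. Each window held 3 GC boxes and 1 CCAAT box, and its share of G and C was 77.0% and 75.2%. The *Sos1* window held 71.7% G and C and neither motif. The inner *Pik3r1* window held 40.7% G and C and neither motif. Of 32851 windows of the same length in the table, 29.3% held the GC box and 31.7% the CCAAT box. These are matches of letters, and the arrays do not measure binding.

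Levels are given as log2 of spot intensity after subtraction of the array's 75th percentile (log2 level), so a negative level is below that percentile of the same array. A level is compared between arrays for the same probe and never between probes. Of 60819 probes analysed, 54232 were measured well above background by 3 or more of the 12 arrays, and limma was run on these. The share of probes well above background was 83.7% to 85.2% in sham miR-150 fl/fl, 81.5% to 87.9% in MI miR-150 fl/fl, 74.1% to 90.3% in sham miR-150 cKO and 87.4% to 89.4% in MI miR-150 cKO. The scans divide the arrays between 2 slides, with all 3 arrays of MI miR-150 cKO on slide 1 beside replicate 3 of MI miR-150 fl/fl. Slide and genotype after MI therefore overlap nearly fully. In the cKO, MI and slide overlap fully, since all 3 sham miR-150 cKO arrays were on slide 2. Within slide 2, sham miR-150 fl/fl and sham miR-150 cKO replicate 1 lay in row 1 and the other 4 arrays in row 2. MI and row of miR-150 fl/fl therefore overlap fully within slide 2 and cannot be told apart there. The smallest p that exact permutation of 3 arrays against 3 allows is 0.1.

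The 3 genes had different patterns over the 4 groups. *Pik3cb* was high in MI miR-150 fl/fl and lower, at overlapping levels, in the other groups. *Pik3r1* was highest in sham miR-150 fl/fl, and its probe was not well above background on 5 of the other 9 arrays. *Sos1* was lowest in sham miR-150 fl/fl and highest in MI miR-150 cKO.

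**Figure D1:**
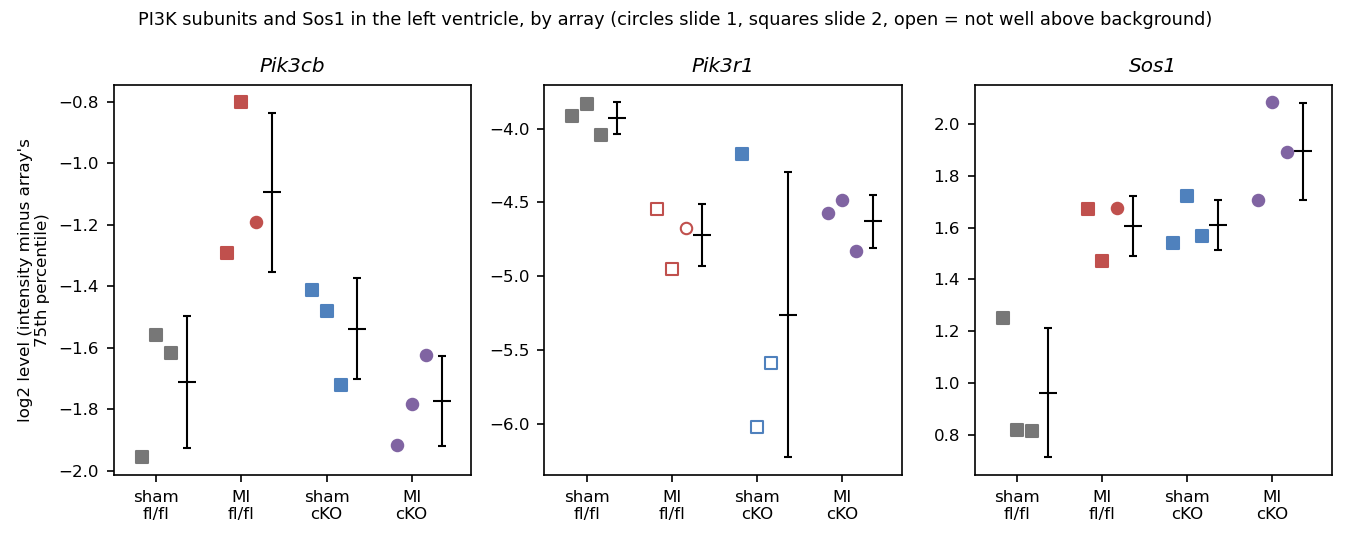
Log2 level of the 3 probes (y axis, log2 intensity minus the array's 75th percentile, with a separate scale for each gene) on each of the 12 arrays by group, with mean ± SD beside each group of 3. Circles are slide 1, squares slide 2, and open marks are arrays where the probe was not well above background, which are 5 of 12 for Pik3r1 and none for Pik3cb and Sos1.

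The *Pik3cb* probe was well above background on all 12 arrays. Its log2 level was -1.96, -1.56 and -1.62 in sham miR-150 fl/fl and -1.29, -0.80 and -1.19 in MI miR-150 fl/fl (replicates 1 to 3). Every MI miR-150 fl/fl array lay above every sham miR-150 fl/fl array. The log2 level was -1.41, -1.48 and -1.72 in sham miR-150 cKO and -1.92, -1.78 and -1.62 in MI miR-150 cKO. In the cKO the groups overlapped, and all 3 arrays after MI lay below all 3 MI miR-150 fl/fl arrays. The order of the group means was MI miR-150 fl/fl (-1.10 ± 0.26, SD, n = 3), sham miR-150 cKO (-1.54 ± 0.16), sham miR-150 fl/fl (-1.71 ± 0.21) and MI miR-150 cKO (-1.77 ± 0.15). The arrays of the last 3 groups in that order overlapped one another.

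As differences of log2 levels, *Pik3cb* was higher by 0.62 (SE 0.16, 1.53-fold) in MI than in sham miR-150 fl/fl. It was lower in MI miR-150 cKO than in MI miR-150 fl/fl, with a difference of -0.68 (SE 0.16, 1.60-fold lower). Both values chose the gene. The comparisons that share a group with these and are given without a test were smaller. Sham miR-150 cKO minus sham miR-150 fl/fl was 0.17 (SE 0.16, 95% interval -0.18 to 0.53), and MI miR-150 cKO minus sham miR-150 cKO was -0.24 (SE 0.16, 95% interval -0.59 to 0.12). Within slide 1, MI miR-150 cKO minus the 1 MI miR-150 fl/fl array was -0.58. Within slide 2, the 2 MI miR-150 fl/fl arrays lay 0.66 above sham miR-150 fl/fl, in another row. With slide and row as blocks that difference was 0.85 (SE 0.31). With slide as a block, MI miR-150 cKO minus sham miR-150 cKO was -0.09 (SE 0.30).

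The *Pik3r1* probe was dim. Its log2 level was -3.91, -3.83 and -4.05 in sham miR-150 fl/fl, where it was well above background on all 3 arrays. It was -4.54, -4.95 and -4.67 in MI miR-150 fl/fl, where it was well above background on none. On this scale the sham miR-150 fl/fl arrays lay above all 9 others. The level in sham miR-150 cKO was -4.17 on replicate 1, which was well above background, and -6.02 and -5.59 on replicates 2 and 3, which were not. It was -4.57, -4.48 and -4.83 in MI miR-150 cKO, well above background on all 3 arrays. The group means were -3.93 ± 0.11 (SD, n = 3) in sham miR-150 fl/fl, -4.63 ± 0.18 after MI in the cKO, -4.72 ± 0.21 in MI miR-150 fl/fl and -5.26 ± 0.97 in sham miR-150 cKO. The last 3 groups overlapped one another, and the SD of sham miR-150 cKO was the largest of the 4 groups.

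Before scaling, the *Pik3r1* intensity was 22.6 to 29.3 in sham miR-150 fl/fl, 12.7 to 15.7 in MI miR-150 fl/fl, 14.6 to 20.9 in MI miR-150 cKO, and 24.3, 5.38 and 7.04 in sham miR-150 cKO. The lowest intensity that any probe well above background had on the same array differed between arrays. It was 26.8 and 24.2 on sham miR-150 cKO replicates 2 and 3, and 13.6 to 21.9 on the other 10 arrays. On the log2 scale these 2 limits were -3.71 and -3.81, so *Pik3r1* levels as in sham miR-150 fl/fl, -4.05 to -3.83, lie below the lowest level that was well above background there. The 4 arrays in row 2 of slide 2, which include MI miR-150 fl/fl replicates 1 and 2 at -4.17 and -4.16, had the highest of these limits. Sham miR-150 cKO replicates 2 and 3 also had the lowest share of probes well above background, 74.1% and 76.1%. The part of these limits in the low *Pik3r1* level was not tested.

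**Figure D2:**
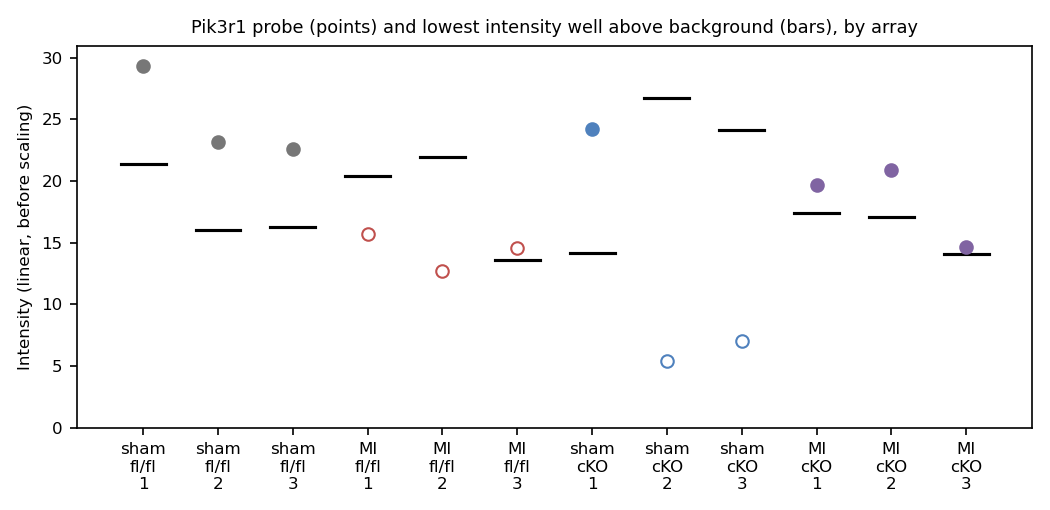
Intensity of the Pik3r1 probe (points, linear scale, filled where well above background) on each array, with the lowest intensity among all probes well above background on that array (bars). The 3 sham miR-150 fl/fl points lie above their bars, and the sham miR-150 cKO points of replicates 2 and 3, at 5.38 and 7.04, lie far below theirs.

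Since MI miR-150 fl/fl gave no array well above background, its *Pik3r1* level has only an approximate bound. The sham miR-150 fl/fl mean was 1.32-fold higher when each MI miR-150 fl/fl array took the higher of its own level and the lowest level well above background. This is not a strict lower limit. On MI miR-150 fl/fl replicate 3 the probe was not well above background at an intensity of 14.6, though another probe was at 13.6. The bound was 1.18 to 1.40 when 1 array of either group was left out. As fitted, and as it chose the gene, the difference was -0.79 (SE 0.37). Sham miR-150 cKO minus sham miR-150 fl/fl, which shares the sham miR-150 fl/fl arrays with it, was -1.33 (SE 0.37, 95% interval -2.15 to -0.52), and only 1 of the 3 sham miR-150 cKO arrays measured the probe well above background. Without the other 2 it was -0.24. MI miR-150 cKO minus MI miR-150 fl/fl was 0.09 (SE 0.37, 95% interval -0.72 to 0.91). The SE of 0.37 pools the spread of all 4 groups, which was widest in sham miR-150 cKO. With the compared groups alone the SE was 0.15 for this difference and 0.14 for MI minus sham in miR-150 fl/fl. After normexp background correction, which adds an offset of 50 to intensities, MI minus sham in miR-150 fl/fl was -0.11 (SE 0.08), and the arrays of these groups overlapped. In a fit with slide and row as blocks, whose row term rests on the sham miR-150 cKO arrays alone, it was 0.81 (SE 0.30), with the sign turned.

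MI miR-150 cKO against sham miR-150 cKO was the comparison of *Pik3r1* that used none of the arrays on which it was chosen. Its 2 groups lay on different slides, so MI and slide cannot be told apart in it. With slide as a block, MI miR-150 cKO minus sham miR-150 cKO was 0.56 (SE 0.70). The slide term of that fit comes from setting MI miR-150 fl/fl replicate 3 (slide 1) against replicates 1 and 2 (slide 2). Those arrays helped to choose the gene and were not well above background, so no test is given with that block. The values that follow are without that block. The difference was 0.63 (SE 0.37, 95% interval -0.18 to 1.45), with overlapping groups, and it did not pass the test (limma, adjusted p = 0.351). With the compared groups alone the SE was 0.46 (limma, adjusted p = 0.448). An exact permutation test over the same 6 arrays, two-sided, gave p = 0.4. The value turned on the sham miR-150 cKO arrays. Without replicate 1, which left only arrays not well above background in that group, it was 1.18 (limma, adjusted p = 0.0115). Without replicates 2 and 3 it was -0.46 (limma, adjusted p = 0.445), and after normexp correction it was -0.17 (limma, adjusted p = 0.213).

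The *Sos1* probe was well above background on all 12 arrays. Its log2 level was 1.25, 0.82 and 0.82 in sham miR-150 fl/fl and 1.67, 1.47 and 1.68 in MI miR-150 fl/fl. It was 1.54, 1.72 and 1.57 in sham miR-150 cKO and 1.71, 2.08 and 1.89 in MI miR-150 cKO. Every array of the other 3 groups lay above the sham miR-150 fl/fl arrays. The order of the group means was MI miR-150 cKO (1.89 ± 0.19, SD, n = 3), sham miR-150 cKO (1.61 ± 0.10), MI miR-150 fl/fl (1.61 ± 0.12) and sham miR-150 fl/fl (0.96 ± 0.25). MI miR-150 fl/fl and sham miR-150 cKO overlapped, with means equal to the second decimal. The highest sham miR-150 fl/fl array was the male.

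Against sham miR-150 fl/fl, *Sos1* was higher by 0.65 (SE 0.14, 1.57-fold) in sham miR-150 cKO and by 0.64 (SE 0.14, 1.56-fold) in MI miR-150 fl/fl. Both differences chose the gene, and they share the 3 sham miR-150 fl/fl arrays. MI miR-150 cKO minus MI miR-150 fl/fl was 0.29 (SE 0.14, 95% interval -0.03 to 0.60). These groups did not overlap, but the lowest MI miR-150 cKO array, 1.71, lay close to the highest MI miR-150 fl/fl array, 1.68. MI miR-150 cKO minus sham miR-150 cKO was 0.28 (SE 0.14, 95% interval -0.03 to 0.60), and the groups overlapped. Within slide 2, the sham difference of genotype was 0.65 and that of MI in miR-150 fl/fl was 0.61. With slide and row as blocks, where the row term rests on the sham miR-150 cKO arrays alone, they were 0.58 (SE 0.21) and 0.51 (SE 0.28). Within slide 1, MI miR-150 cKO minus the 1 MI miR-150 fl/fl array was 0.22.

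**Figure D3:**
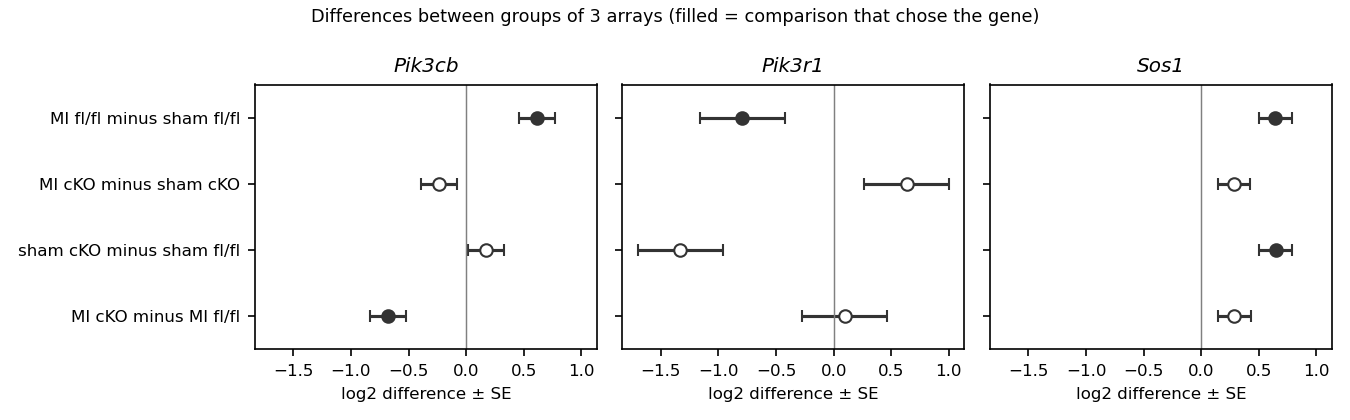
Log2 difference ± SE (x axis) of each gene in the 4 comparisons of 3 arrays against 3, from the limma fit of 4 group means. Filled points are the comparisons that chose the gene: Pik3cb at 0.62 and -0.68, Pik3r1 at -0.79, and Sos1 at 0.65 and 0.64. Open points share a group with these, except Pik3r1 in MI cKO minus sham cKO.

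The patterns also differed in how MI and genotype combined. For *Pik3cb*, MI minus sham was 0.62 in miR-150 fl/fl and -0.24 in the cKO, an interaction of -0.85 (SE 0.22). For *Pik3r1* these differences were -0.79 and 0.63 as fitted, an interaction of 1.43 (SE 0.52), but they involve groups with 0 and 1 of 3 arrays well above background. That interaction was 0.34 without sham miR-150 cKO replicates 2 and 3, 0.29 with slide and row as blocks and -0.06 after normexp correction. For *Sos1* they were 0.64 and 0.28, an interaction of -0.36 (SE 0.20, 95% interval -0.80 to 0.08). Each interaction holds arrays that chose the gene, so no test is given.

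The background against which these counts stand is that of all probes. In MI against sham miR-150 fl/fl, 3.83% of probes had groups that did not overlap and were higher, like *Pik3cb* and *Sos1*, and 4.77% were lower, like *Pik3r1*. These counts were fixed by the choice of members. In sham miR-150 cKO against sham miR-150 fl/fl, which also chose *Sos1*, 5.05% were higher without overlap, like *Sos1*, and 5.74% lower, like *Pik3r1*. In MI miR-150 cKO against MI miR-150 fl/fl, which also chose *Pik3cb*, 15.4% were higher, like *Sos1*, and 13.1% lower, like *Pik3cb*. In MI miR-150 cKO against sham miR-150 cKO, 15.4% were higher and 13% lower, and 0 of the 3 genes were among them. At an adjusted p under 0.05 limma called 0% of probes in MI against sham miR-150 fl/fl and 0% in sham miR-150 cKO against sham miR-150 fl/fl, with 2288 and 4976 probes at an unadjusted p under 0.05. The methods' t-test after Benjamini-Hochberg adjustment also called 0 and 0. limma called 0.00184%, or 1 probe, in MI miR-150 cKO against MI miR-150 fl/fl and 2.1%, or 1139 probes, in MI miR-150 cKO against sham miR-150 cKO. The median difference over all probes tested was between -0.03 and 0.06 in the 4 comparisons.

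Choosing values in the authors' deposited log2 table were near the study's limit of 1.5 for some genes. *Sos1* was 1.51-fold higher in sham miR-150 cKO and 1.58-fold higher in MI miR-150 fl/fl. *Pik3cb* was 1.53-fold higher in MI miR-150 fl/fl and 1.57-fold lower in MI miR-150 cKO. *Pik3r1* was 1.82-fold lower in MI miR-150 fl/fl, a value of the table and not a measured size, since only the approximate bound of 1.32-fold is given there. Outside the limits lay *Pik3r1* in sham miR-150 cKO, with the wide spread described above and only 1 array well above background. In the authors' values it was 2.48-fold lower there than in sham miR-150 fl/fl, so it missed the limit of p and not that of fold. *Sos1* in MI miR-150 cKO, 1.15-fold higher than in MI miR-150 fl/fl, also lay outside.

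**Figure D4:**
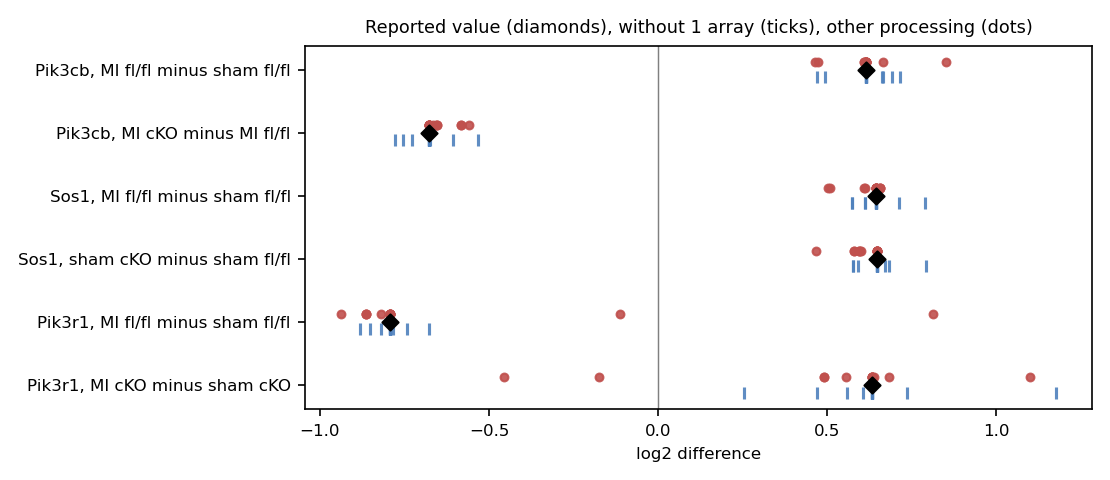
Log2 difference (x axis) of the 5 choosing values and of Pik3r1 in MI cKO minus sham cKO, as reported (diamonds), without 1 array (ticks) and under other processing (dots). Pik3cb and Sos1 keep their sign throughout, and Pik3r1 crosses 0 in both comparisons.

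Sex was not used to choose the genes. Male minus female, with group in the fit, was -0.15 (SE 0.12) for *Pik3cb*, -0.16 (SE 0.29) for *Pik3r1* and 0.25 (SE 0.08) for *Sos1*. For *Sos1* the male lay above both females in 3 of 4 groups, and the difference did not pass correction (limma, adjusted p = 0.625). The adjusted p by limma was 0.781 for *Pik3cb* and 0.918 for *Pik3r1*, with 95% intervals of -0.41 to 0.11 and -0.80 to 0.48. Over all probes 0.00184%, or 1, passed. One male per group carries this comparison.

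Within groups the genes showed no relation that passed a test. Deviations from the group mean were correlated over the 12 arrays, with all 1296 reorderings within groups as the exact permutation test, two-sided, for 3 pairs. For *Pik3cb* and *Sos1*, Pearson's r was -0.48 (exact p = 0.179, adjusted over the 3 pairs 0.537) and Spearman's rho was -0.45 (exact p = 0.226, adjusted 0.678). Without the 2 arrays farthest from the median of *Pik3cb* it was -0.16, so its size rests on those arrays. For *Pik3cb* and *Pik3r1*, r was 0.01 (exact p = 0.988, adjusted 0.988) and rho was -0.11 (exact p = 0.738, adjusted 0.880), and without the 2 farthest arrays r was 0.13. For *Pik3r1* and *Sos1*, r was -0.11 (exact p = 0.711, adjusted 0.988) and rho was -0.05 (exact p = 0.880, adjusted 0.880), and without the 2 farthest arrays r was 0.34.

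Of a list of 138 genes of PI3K and Ras signaling, 10 had a named probe: the 3 genes above and 7 others. All 7 have a name because they passed the study's limits in MI miR-150 cKO against MI miR-150 fl/fl, so their differences there are a description. *Egfr*, the epidermal growth factor receptor, was higher in MI miR-150 cKO by 1.28 (SE 0.27). *Pdpk1*, the PIP3-bound kinase that activates Akt, was higher by 0.88 (SE 0.21), and by 0.46 with slide as a block. *Foxo3*, a transcription factor that Akt keeps out of the nucleus, was higher by 0.60 (SE 0.16). These 3 lie upstream and downstream of PI3K.

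The other 4 genes were on both sides of 0 in the same comparison. *Rasa2*, a GTPase-activating protein that turns Ras off, was higher by 0.62 (SE 0.14). *Inpp5j*, an inositol phosphatase that takes a phosphate from PIP3, was higher by 0.57 (SE 0.24), by 0.37 with slide as a block and by 0.34 after normexp correction. *Inpp5d* (SHIP1), a phosphatase of the same kind known from blood cells, differed by -0.60 (SE 0.12), and *Gng11*, a G protein gamma subunit, by -0.59 (SE 0.33). Of the 7, 5 were positive and 2 negative. The limits that named them set a least size for each in the authors' values.

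Sham miR-150 cKO against sham miR-150 fl/fl used none of the arrays that named the 7 genes, except in the spread taken by limma. There 0 of 7 passed at an adjusted p by limma, 0 of 7 had an unadjusted p under 0.05 and 0 of 7 had groups without overlap. Of all 54232 probes, 0 passed and 4976 had an unadjusted p under 0.05. Groups without overlap were higher for 5.05% of probes and lower for 5.74%. Counts of 0 among 7 genes therefore do not set these genes apart. Their differences ran from -0.18 (*Rasa2*) to 0.48 (*Gng11*). MI against sham miR-150 fl/fl shares the MI miR-150 fl/fl arrays with the naming comparison, so no test is given. *Egfr* differed there by -0.62 (SE 0.27) and *Gng11* by 0.66 (SE 0.33), both with overlapping groups. MI miR-150 cKO against sham miR-150 cKO shares the MI miR-150 cKO arrays with the naming comparison and draws on values that named the genes, so no test is given. The gene with the largest difference of the 7 there was higher after MI by 0.71.

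That gene was *Rasa2*. Its log2 level was 0.68, 0.97 and 1.09 in MI miR-150 cKO and 0.21, 0.00 and 0.41 in sham miR-150 cKO. The groups did not overlap, and the difference was 0.71 (SE 0.14), given without a test because the MI miR-150 cKO arrays also named the gene. It ran from 0.48 to 0.82 over 26 alternatives. Slide as a block gave 0.48 (SE 0.25).

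**Figure D5:**
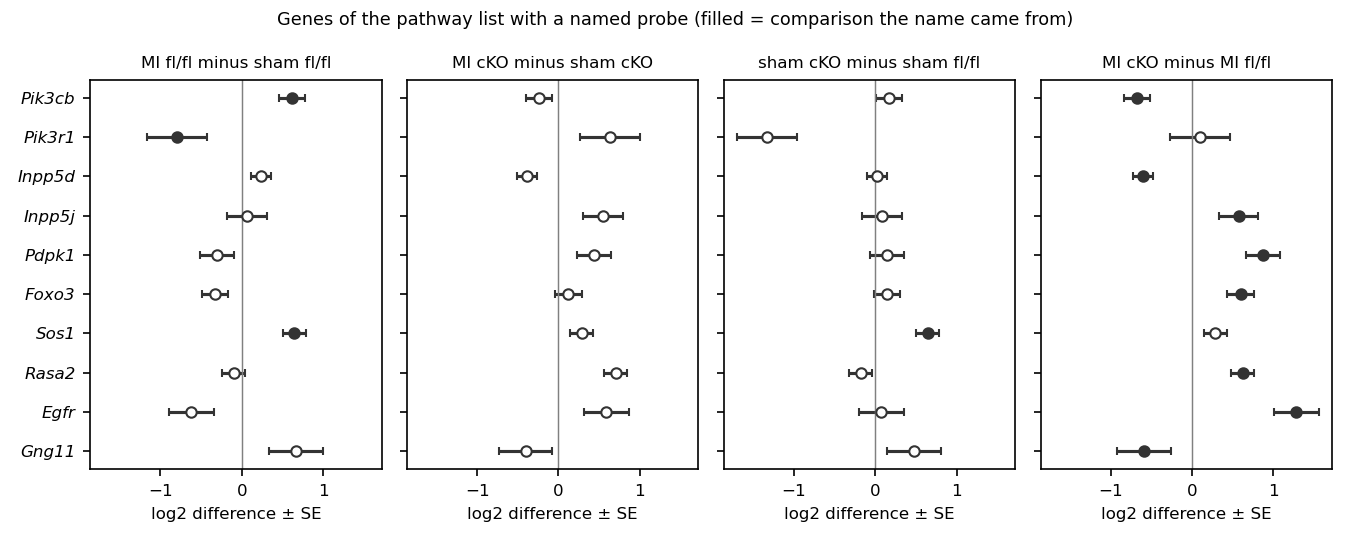
Log2 difference ± SE (x axis) of the 10 genes of the pathway list that had a named probe, in each of the 4 comparisons. Filled points are comparisons a gene's name came from, which for the 7 genes other than Pik3cb, Pik3r1 and Sos1 is MI cKO minus MI fl/fl. In sham cKO minus sham fl/fl these 7 lie between -0.18 and 0.48.

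Among named probes well above background on all 12 arrays, 720 or 721 were compared with each gene for the likeness of their pattern, as Pearson's r over the 12 arrays with no test. The probes most like *Pik3cb* were *Gsdmd*, the pore-forming gasdermin D (r = 0.92), *Gstt3*, a glutathione transferase (r = 0.89), and *Neurl3*, an E3 ubiquitin ligase (r = 0.88). Those most like *Pik3r1* were *Crtac1* (r = 0.78), *C1qtnf6* (r = 0.77) and *Apol8* (r = 0.76). With the authors' values these 3 were 0.67, 0.64 and 0.71. Those most like *Sos1* were *Wisp2*, a matricellular protein (r = 0.90), *Sprr1a*, a small proline-rich protein (r = 0.86), and *Nppa*, the atrial natriuretic peptide gene that CMs express under load (r = 0.85). All of these probes have names because they passed the study's limits in 1 or more comparisons of these arrays, so likeness among them is partly fixed by that choice, and the arrays share group, slide and scaling.

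Of the cell type markers listed, 3 of 10 for CMs, 6 of 10 for fibroblasts, 4 of 11 for leukocytes and 0 of 10 for endothelial cells had a named probe. All named CM markers (*Myh7*, *Nppa* and *Tnnt2*) were detected in every group. Their summed level on a linear scale, in units of the array's 75th percentile, was 40.0 to 102 in sham miR-150 fl/fl, 72.7 to 78.8 in MI miR-150 fl/fl, 116 to 335 in sham miR-150 cKO and 368 to 456 in MI miR-150 cKO. For the fibroblast markers it was 9.09 to 19.3, 42.7 to 44.8, 27.2 to 37.5 and 36.6 to 72.3 in the same order. For the leukocyte markers it was 15.0 to 28.5, 28.7 to 35.6, 32.0 to 44.6 and 23.3 to 36.9. In sham miR-150 fl/fl, 1 leukocyte probe was not well above background on any array. The median sum of each of the 3 lists was, like the mean of *Sos1*, lowest in sham miR-150 fl/fl, and that of CMs was highest in MI miR-150 cKO. The CM sum includes *Nppa*, which CMs express under load, so it does not measure the number of CMs. The fibroblast median was 45.2 in MI miR-150 cKO and 43.8 in MI miR-150 fl/fl, with overlapping ranges. These markers too have names because they passed the study's limits, and their part in the levels of *Sos1*, *Pik3cb* and *Pik3r1* was not tested.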

How the data were processed

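LV RNA of 12 mice was labelled with Cy3 by random priming and hybridized to 1-colour Agilent arrays. The authors deposited background-subtracted spot intensity (Agilent Feature Extraction 11.0.1.1) and a table of log2 values whose normalization is not named in the sources used here. Intensity was scaled on the log2 scale by subtracting each array's 75th percentile. Flagged spots (435, 0.0593%) were treated as missing. limma 3.58.1 in R 4.3.3 (the data.table package at 1.17.8) fitted 4 group means over 54232 probes (those that 3 or more of the 12 arrays measured well above background), with Benjamini-Hochberg adjustment over all of them. The method was tested on simulated data. Permutations and figures used Python 3.11.15, numpy 2.4.6, pandas 2.3.3, scipy 1.17.1 and matplotlib 3.10.9.

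Probes were named by matching fold and p of 963 entries of the study's gene lists to values computed from the authors' table (relative tolerance 2e-05), which named 892 probes. The fold and p columns served as a key for names and are not reported. The members, the pathway list and the marker lists were chosen with earlier results of these data known. Genes named are the 3 members, every listed pathway gene with a named probe and the 3 probes most correlated with each member. Slides were inferred from scan times. The number of arrays limits the precision. The labels do not say whether mice were littermates.

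Alternatives were quantile normalization, normexp (offset 50), the authors' values, no filter, a filter on all 12 arrays, the compared groups alone, the methods' t-test with and without the authors' values, sex as a covariate, replicate, slide and row as blocks, and leaving out each array. Scaling to 15 housekeeping probes and leaving out both sham miR-150 cKO arrays in row 2 were added after the data were seen.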

Additional observations from a re-analysis of the deposited data

Results flagged for a closer look

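As fitted, MI minus sham had opposite signs in the 2 genotypes for 2 of the 3 genes. For *Pik3cb*, all 3 MI miR-150 fl/fl arrays lay above the sham miR-150 fl/fl mean and all 3 MI miR-150 cKO arrays lay below the sham miR-150 cKO mean, with an interaction of -0.85 on the log2 scale. For *Pik3r1*, all 3 MI miR-150 fl/fl arrays lay below and all 3 MI miR-150 cKO arrays above the mean of their sham group, with an interaction of 1.43. The difference between genotypes was not tested in either case, because the arrays that chose the genes are part of it. For *Pik3cb* the cKO groups overlapped (difference -0.24, SE 0.16), and that difference was -0.09 with slide as a block and -0.03 with slide and row as blocks. For *Pik3r1* the signs were the same in both genotypes under 3 alternatives. MI minus sham was -0.11 in miR-150 fl/fl and -0.17 in the cKO after normexp correction, -0.79 and -0.46 without the 2 sham miR-150 cKO arrays in row 2, and both above 0 with slide and row as blocks. Its interaction was then -0.06, 0.34 and 0.29.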

How the results depend on the processing

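*Pik3cb* and *Sos1* kept the direction of all their choosing differences in every alternative run. With slide and row as blocks *Pik3cb* in MI against sham miR-150 fl/fl was 0.85. Scaling to housekeeping probes lowered the median of all probes from -0.03 to -0.21 in sham miR-150 cKO against sham miR-150 fl/fl, and *Sos1* there to 0.47. Leaving out 1 array gave *Pik3cb* 0.47 to 0.71 and -0.78 to -0.53, and *Sos1* 0.57 to 0.79 in both choosing comparisons. *Pik3r1* in MI against sham miR-150 fl/fl was -0.88 to -0.68 without 1 array, -0.11 with normexp and 0.81 with slide and row as blocks. In MI against sham miR-150 cKO it was 0.25 to 1.18 without 1 array, -0.17 with normexp and -0.46 without both sham miR-150 cKO arrays in row 2. The dimness of the probe limits all its values.

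Male minus female for *Pik3r1* was -0.30 to 0.17 without 1 array, positive without sham miR-150 cKO replicate 1 (0.051) or 2 (0.17), and 0.032 with normexp. The correlation of *Pik3cb* and *Pik3r1* was -0.31 with quantile normalization and -0.31 with the authors' values, and -0.70 to 0.17 without 1 array. That of *Pik3r1* and *Sos1* was 0.058, 0.098 and -0.19 to 0.15. That of *Pik3cb* and *Sos1*, -0.48, ranged from -0.74 (MI miR-150 cKO replicate 1 left out) to -0.17 (sham miR-150 fl/fl replicate 1 left out). The cause of these changes was not tested.

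Counts of probes called at an adjusted p varied more. For MI against sham in the cKO, 1139 became 1939 with quantile normalization, 3343 with normexp, 1915 with the authors' values, 2005 with the filter on all arrays, 22 with slide as a block, 5 with slide and row, 2 without both row 2 arrays, and 0 with the compared groups alone, the methods' t-test on either table or housekeeping scaling. For MI miR-150 cKO against MI miR-150 fl/fl, 1 became 2 with quantile normalization, 2400 with normexp, 295 with the filter on all arrays, 5 with the compared groups alone, 304 with sex as a covariate, 80 and 92 with slide and with slide and row, and 0 with both t-tests, housekeeping scaling or without both row 2 arrays. For MI against sham in miR-150 fl/fl, 0 became 1 with quantile normalization, the authors' values, no filter, the authors' values with the t-test, or without both row 2 arrays, and 5 with either slide block. For sham miR-150 cKO against sham miR-150 fl/fl, 0 became 1 with the authors' values, no filter, the authors' values with the t-test or housekeeping scaling, 5 with slide and row, and 2 without both row 2 arrays. Without 1 array the counts were 0 to 4037, 0 to 99, 0 to 4 and 0 to 302 in the same order, with 4037 and 302 without sham miR-150 cKO replicate 1.

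Replicate numbers did not pair the arrays: same-numbered deviations correlated from -0.27 to 0.27 over 18 pairs, 6 of them above 0.1, and 4 of 12 arrays correlated best with their own number. With the replicate block, *Pik3r1* in MI against sham miR-150 cKO was 0.63 (limma, adjusted p = 0.321), and the counts 1139 and 1 became 0 and 0.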
